A study of Homo sapiens with 8 samples.

Results

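Fc receptors and Fc receptor-like proteins of B cells were followed here through 10 genes, FCRL1, FCRL2, FCRL3, FCRL4, FCRL5, FCRLA, FCRLB, FCGR2A, FCGR2B and FCER2. They were found by exact match of the symbol among the 25066 genes of the deposited table, and all 10 were listed there once each. The RNA came from TMD8, an established human cell line of large B cell lymphoma of the activated B cell-like subtype (ABC-DLBCL), whose cells had received Cas9 through a lentivirus. The 4 groups, each of 2 libraries, were sgKLHL14 cells (labelled KLHL14 -/-) with ibrutinib, sgCTRL cells (labelled KLHL14 +/+, with a control guide RNA) with ibrutinib, sgKLHL14 cells with DMSO, and sgCTRL cells with DMSO. Ibrutinib, which binds covalently to the kinase BTK and blocks B cell receptor signalling, was given at 2 nM for 24 h, and DMSO is its solvent. All cells belong to 1 cell line, and whether the guide-bearing cells were a clone or a pool is not given in the sources used here.

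As background, Fc receptors bind the constant part of antibodies, and the Fc receptor-like genes are their relatives, expressed mainly in the B lineage. Most of these proteins carry short tyrosine motifs in their tails. An ITIM recruits phosphatases such as SHP-1 (gene PTPN6) and SHIP1 (gene INPP5D) and damps signals of the B cell receptor, whereas an ITAM recruits kinases such as SYK and passes signals on. FCRL2, FCRL3, FCRL4 and FCRL5 carry ITIMs, FCRL1 carries ITAM-like motifs only, and FCRLA and FCRLB stay inside the cell. FCGR2B is the inhibitory IgG receptor of B cells, FCGR2A an activating IgG receptor best known from myeloid cells, and FCER2 (CD23) the low-affinity IgE receptor, a lectin unrelated in sequence to the others.

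Library depth ran from 12333876 to 23467110 reads, and the correlation across genes within a group was 0.9938 to 0.9956. The target of the guide was measured first. KLHL14, an adaptor of a cullin ubiquitin ligase, stood on the log2 scale at 13.16 and 13.16 in ibrutinib and 12.19 and 12.33 in DMSO in the libraries labelled sgKLHL14. It stood at 12.30 and 12.30 in ibrutinib and 12.07 and 12.06 in DMSO in the sgCTRL libraries. KLHL14 mRNA was therefore not lower in the libraries labelled sgKLHL14, and in ibrutinib it was higher by 0.86 ± 0.06 (log2, SE; limma adjusted p = 2.46e-08); mRNA does not show whether a gene was edited. Of the 9 B cell markers examined all were expressed, with a summed level of 130000 to 133000 normalized reads in the sgKLHL14 ibrutinib libraries, 130000 to 131000 in sgCTRL ibrutinib, 88000 to 91300 in sgKLHL14 DMSO and 90600 to 93100 in sgCTRL DMSO. The T cell genes CD3D, CD3E and CD28 and the myeloid genes S100A8, S100A9, S100A12, MPO and FCN1 had 0 reads in every library. Other genes of these marker lists were detected. CD8A at 19 to 36 reads a library, CD4 at 6 to 25 and VCAN at 3 to 35 passed the level filter and are described below.

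Of the 10 genes, 9 were expressed, meaning a mean log2 level of at least 4.03, which is 10 reads at the median library factor, and 12682 of all 25066 genes (50.6%) were. FCER2 was the exception. It had 4 and 2 reads in the sgKLHL14 ibrutinib libraries, 1 and 1 in sgCTRL ibrutinib, 2 and 1 in sgKLHL14 DMSO, and 0 and 1 in sgCTRL DMSO. A count of 0, seen in the first sgCTRL DMSO library, allows up to 3 reads. FCER2 did not enter the tests, so differences between the groups were not tested at these low counts, and no fold is given. FCRL6, FCGR3A, FCGR3B, FCER1A and MS4A2, further Fc receptor genes known from NK cells, granulocytes and mast cells, had 0 reads in all 8 libraries.

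Levels between genes were compared as normalized reads per kb of the listed transcript. A group of 4 genes stood far above the others: FCRLA, FCRL2, FCRL5 and FCRL3 together held 95.1% to 95.7% of the reads of the 10 genes in every library. In the sgCTRL DMSO libraries FCRL2 had 2305 and 2485 reads per kb and FCRL5 2230 and 2483, ranges that overlapped, followed by FCRLA with 1899 and 1936 and FCRL3 with 1547 and 1539. FCGR2B came next at a mean of 311 reads per kb, then FCRL4 at 110, FCRL1 at 88.5, FCRLB at 40.6 and FCGR2A at 7.81. FCRLA, an endoplasmic reticulum protein that binds immunoglobulin inside the cell, was first in the other groups, with a mean of 5092 reads per kb in sgKLHL14 ibrutinib, 3941 in sgCTRL ibrutinib and 2442 in sgKLHL14 DMSO. FCRL1 and FCRL4 changed places with treatment. FCRL1 had 224 and 234 reads per kb in sgKLHL14 ibrutinib and 268 and 289 in sgCTRL ibrutinib, above FCRL4, which had 66.7 and 81.6 in sgKLHL14 ibrutinib and 112 and 114 in sgCTRL ibrutinib. In DMSO the libraries labelled sgKLHL14 had 78.5 and 91.3 for FCRL1 and 85.3 and 85.4 for FCRL4, which overlapped, and the sgCTRL libraries had 79.5 and 97.6 for FCRL1 and 109 and 112 for FCRL4.

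**Figure D1:**
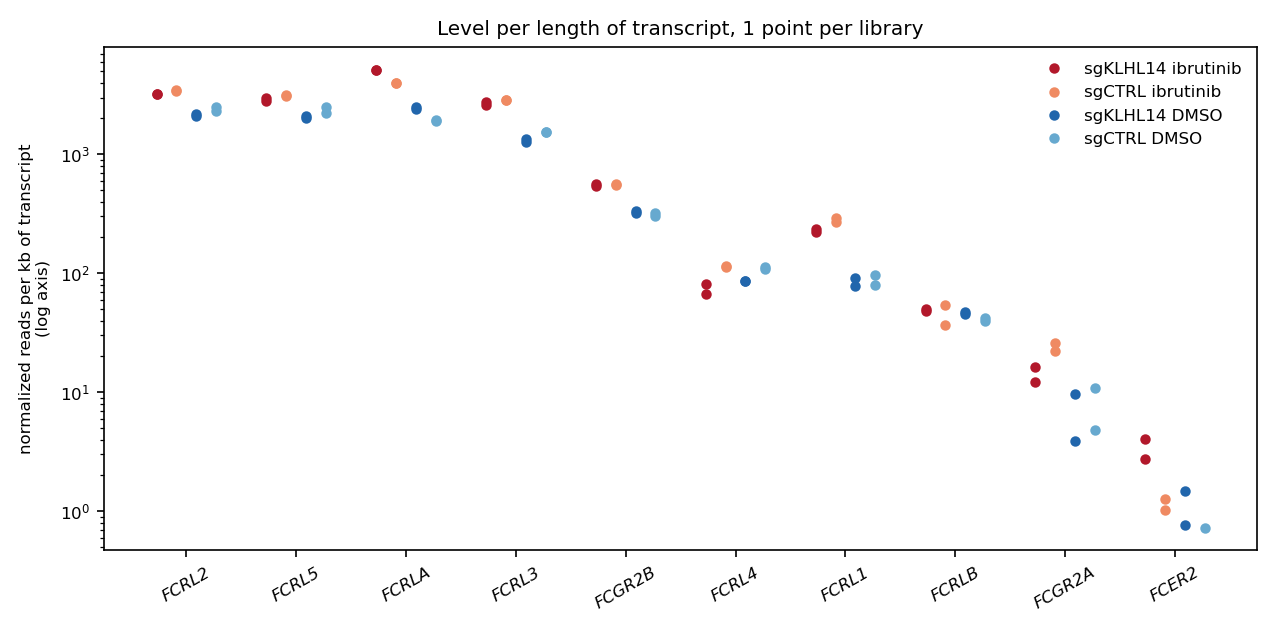
Normalized reads per kb of transcript on a log axis for the 10 genes, 1 point per library, with the groups from left to right in the order of the legend; the 1 library without FCER2 reads has no point. FCRL2, FCRL5, FCRLA and FCRL3 lie above the other 6 genes in every library, and FCER2 lies lowest.

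Most of these genes were higher with ibrutinib. In the libraries labelled sgKLHL14, 7 of the 9 expressed genes were higher in ibrutinib than in DMSO and 0 were lower at an adjusted p under 0.05, where 38.9% of all kept genes were called, 19.7% higher and 19.3% lower. In the sgCTRL libraries 7 of 9 were higher and 0 lower, where 34.8% of all kept genes were called, 17.9% higher and 16.9% lower. The 7 were FCRL1, FCRL2, FCRL3, FCRL5, FCRLA, FCGR2A and FCGR2B with either guide. FCGR2A passed the level filter only through its ibrutinib libraries, since its mean over the 4 DMSO libraries lay below 4.03; of the other 8 expressed genes 6 were higher with either guide. The median log2 change over the 9 genes, FCGR2A included, was 0.76 with sgKLHL14 and 0.83 with sgCTRL, against medians over all kept genes of 0.011 and 0.018 for the same guides. Together the 10 genes took 0.181% and 0.19% of all reads in sgKLHL14 ibrutinib, against 0.107% and 0.111% in sgKLHL14 DMSO. In the sgCTRL libraries they took 0.188% and 0.19% in ibrutinib, against 0.115% and 0.123% in DMSO. Bulk RNA cannot tell a higher level per cell from a larger share of cells that express a gene. A lack of overlap between groups of 2 libraries is given below as a description only. The share of all kept genes without overlap was not counted. FCRL4 and FCRLB also lacked overlap between treatments with sgKLHL14 and did not pass. The tests were limma-trend fits across all kept genes with Benjamini-Hochberg adjustment, and since separate cultures are not stated for the 2 libraries of a group, the p-values measure a spread that may be technical.

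**Figure D2:**
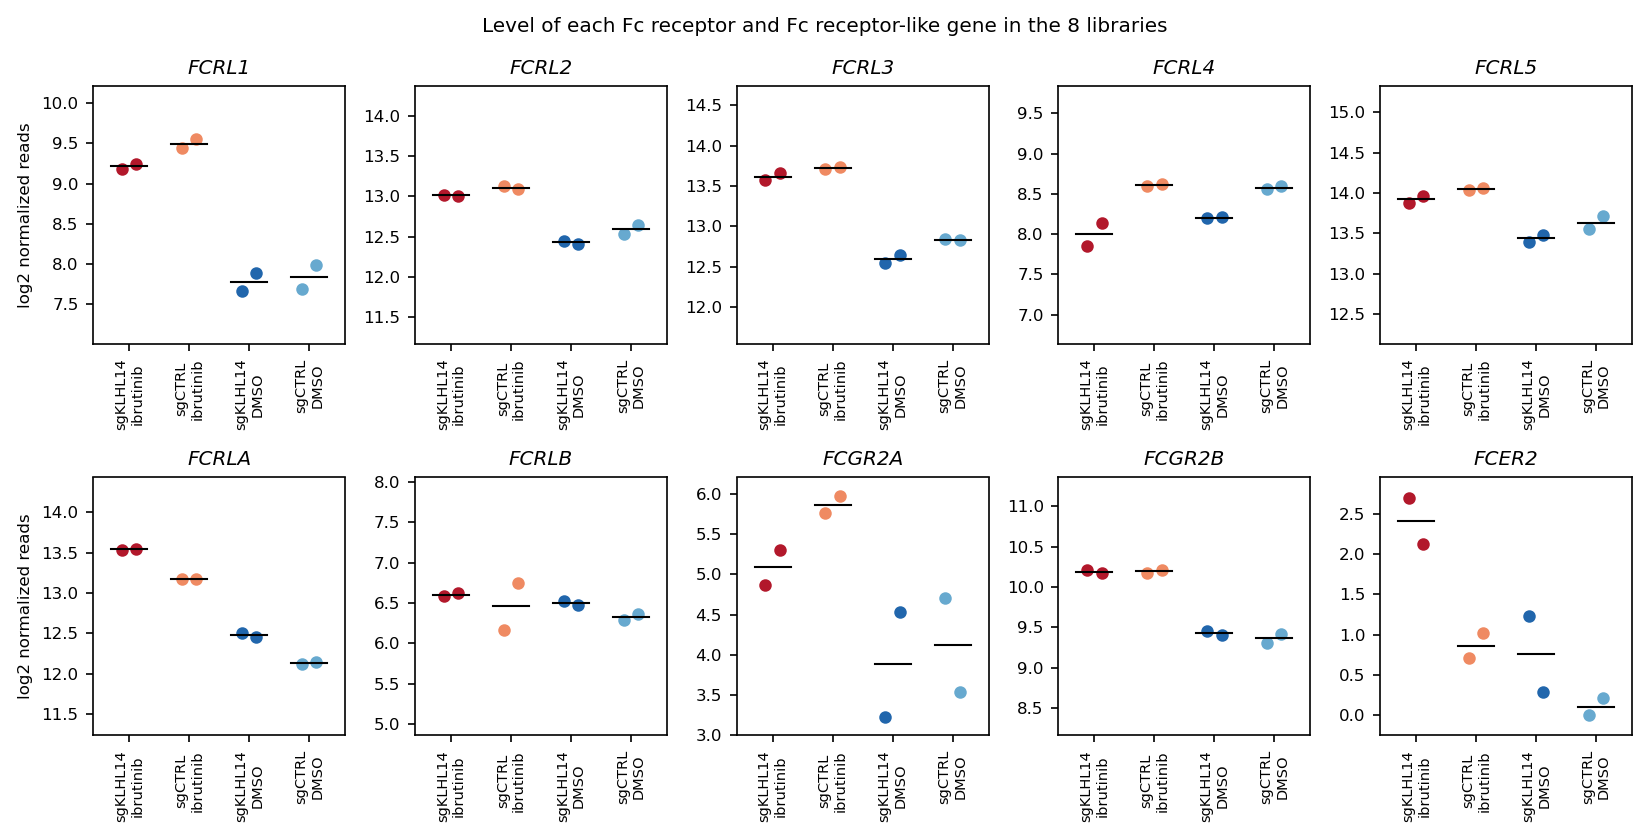
Log2 normalized reads of each gene in the 8 libraries; points are libraries, black bars are means of 2, and the vertical axes cover equally many log2 units in each panel but start at different levels. FCRL1, FCRL2, FCRL3, FCRL5, FCRLA and FCGR2B are higher in both ibrutinib groups without overlap, and FCRL4 and FCRLB are not.

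Among the Fc receptor-like genes with ITIMs, FCRL3, which is known to bind secretory IgA, changed most. FCRL3 stood at 13.57 and 13.66 (log2 level) in the sgKLHL14 ibrutinib libraries, against 12.54 and 12.64 in sgKLHL14 DMSO. In the sgCTRL libraries it stood at 13.71 and 13.73 in ibrutinib, against 12.84 and 12.83 in DMSO. Every ibrutinib library lay above every DMSO library. The log2 change of FCRL3 was 1.02 ± 0.059 with sgKLHL14 (SE; limma adjusted p = 1.12e-10) and 0.89 ± 0.059 with sgCTRL (limma adjusted p = 7.41e-10), which is 2.03-fold and 1.85-fold.

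FCRL2 and FCRL5 rose by less and resembled each other. FCRL2 stood at 13.02 and 13.01 in sgKLHL14 ibrutinib, against 12.45 and 12.41 in sgKLHL14 DMSO, and at 13.13 and 13.09 in sgCTRL ibrutinib, against 12.54 and 12.65 in sgCTRL DMSO. FCRL5, which binds intact IgG, stood at 13.87 and 13.97 in sgKLHL14 ibrutinib, against 13.39 and 13.48 in sgKLHL14 DMSO, and at 14.04 and 14.06 in sgCTRL ibrutinib, against 13.55 and 13.71 in sgCTRL DMSO. Neither gene had an overlap between treatments. The log2 changes with sgKLHL14 were 0.58 ± 0.058 for FCRL2 (limma adjusted p = 2.01e-07) and 0.48 ± 0.063 for FCRL5 (limma adjusted p = 6.08e-06). With sgCTRL they were 0.52 ± 0.058 for FCRL2 (limma adjusted p = 9.63e-07) and 0.42 ± 0.063 for FCRL5 (limma adjusted p = 4.13e-05).

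FCRL4, the remaining Fc receptor-like gene with ITIMs, binds IgA and marks memory B cells of tissues. It stood at 7.85 and 8.14 in sgKLHL14 ibrutinib, against 8.21 and 8.21 in sgKLHL14 DMSO, and at 8.59 and 8.62 in sgCTRL ibrutinib, against 8.56 and 8.60 in sgCTRL DMSO. The sgCTRL groups overlapped and the sgKLHL14 groups did not. Neither difference passed the test: the log2 change was -0.21 with sgKLHL14 (95% interval -0.46 to 0.04, limma adjusted p = 0.175) and 0.03 with sgCTRL (95% interval -0.22 to 0.28, limma adjusted p = 0.856). These intervals lie below the changes of FCRL2, FCRL3 and FCRL5 with the same guide, although a difference between genes was not tested. FCRL4 rests on fewer reads than those 3 genes, 129 to 333 a library.

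FCRL1, which has ITAM-like motifs and promotes B cell activation, had the largest change among the members with over 100 reads in every library. FCRL1 stood at 9.19 and 9.24 in sgKLHL14 ibrutinib, against 7.67 and 7.89 in sgKLHL14 DMSO. In the sgCTRL libraries it stood at 9.44 and 9.55 in ibrutinib, against 7.69 and 7.99 in DMSO. All ibrutinib values lay above all DMSO values. The log2 change was 1.44 ± 0.12 with sgKLHL14 (2.70-fold, limma adjusted p = 1.95e-08) and 1.66 ± 0.12 with sgCTRL (3.16-fold, limma adjusted p = 2.72e-09).

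The intracellular pair split. FCRLA stood at 13.53 and 13.55 in sgKLHL14 ibrutinib, against 12.51 and 12.45 in sgKLHL14 DMSO, and at 13.17 and 13.17 in sgCTRL ibrutinib, against 12.12 and 12.15 in sgCTRL DMSO. Its log2 change was 1.06 ± 0.056 with sgKLHL14 (2.09-fold, limma adjusted p = 2.91e-11) and 1.04 ± 0.056 with sgCTRL (2.06-fold, limma adjusted p = 4.63e-11). FCRLB, its neighbour on chromosome 1, had 39 to 79 reads a library and did not pass, at 0.10 with sgKLHL14 (95% interval -0.35 to 0.54, limma adjusted p = 0.747) and 0.13 with sgCTRL (95% interval -0.31 to 0.58, limma adjusted p = 0.668). At this depth a change of FCRLB by the 1.04 of FCRLA lies outside both intervals.

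The classical IgG receptors both rose, at very different levels. FCGR2B stood at 10.21 and 10.17 in sgKLHL14 ibrutinib, against 9.45 and 9.41 in sgKLHL14 DMSO, and at 10.18 and 10.21 in sgCTRL ibrutinib, against 9.31 and 9.41 in sgCTRL DMSO. The log2 change was 0.76 ± 0.079 with sgKLHL14 (limma adjusted p = 3.59e-07) and 0.83 ± 0.079 with sgCTRL (limma adjusted p = 1.13e-07), without overlap in either pair. FCGR2A had 18 and 18 reads in sgKLHL14 ibrutinib, against 8 and 19 in sgKLHL14 DMSO, and 33 and 31 in sgCTRL ibrutinib, against 13 and 10 in sgCTRL DMSO. Scaled for depth, its log2 level was 4.87 and 5.30 in sgKLHL14 ibrutinib, against 3.23 and 4.54 in sgKLHL14 DMSO, and 5.75 and 5.97 in sgCTRL ibrutinib, against 4.70 and 3.54 in sgCTRL DMSO. On that scale neither pair overlapped, although the DMSO libraries lay far apart. Its log2 change was 1.20 ± 0.45 with sgKLHL14 (limma adjusted p = 0.0396) and 1.74 ± 0.45 with sgCTRL (limma adjusted p = 0.00497). The FCGR2A call was lost without the level filter (limma adjusted p = 0.173 with sgKLHL14 and 0.0632 with sgCTRL) and on leaving out single libraries, among them sgKLHL14 DMSO replicate 1, which moved the change to 0.55, and sgCTRL DMSO replicate 2, which moved it to 1.16.

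FCGR2A, FCGR2B and FCGR2C are near-identical in places, so their reads are uncertain between them. Of all stretches of 50 bases in FCGR2B transcripts, 32.6% also occurred in FCGR2C and 8.2% in FCGR2A, and of those in FCGR2A 23.0% occurred in FCGR2C. Stretches shared with any other gene made up 1.5% of FCRL5, where the other gene was AL135929.1, and 0.0% of FCRL1, FCRL2, FCRL3, FCRLA and FCRLB. FCGR2C, which is no member, stood at 7.24 and 7.45 in sgKLHL14 ibrutinib, against 5.81 and 6.15 in sgKLHL14 DMSO, and at 7.79 and 7.70 in sgCTRL ibrutinib, against 6.29 and 6.41 in sgCTRL DMSO. Summing the reads of the 3 genes, an alternative chosen after seeing the data, gave a log2 change of 0.83 with sgKLHL14 (limma adjusted p = 5.12e-08) and 0.93 with sgCTRL (limma adjusted p = 1.1e-08).

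**Figure D3:**
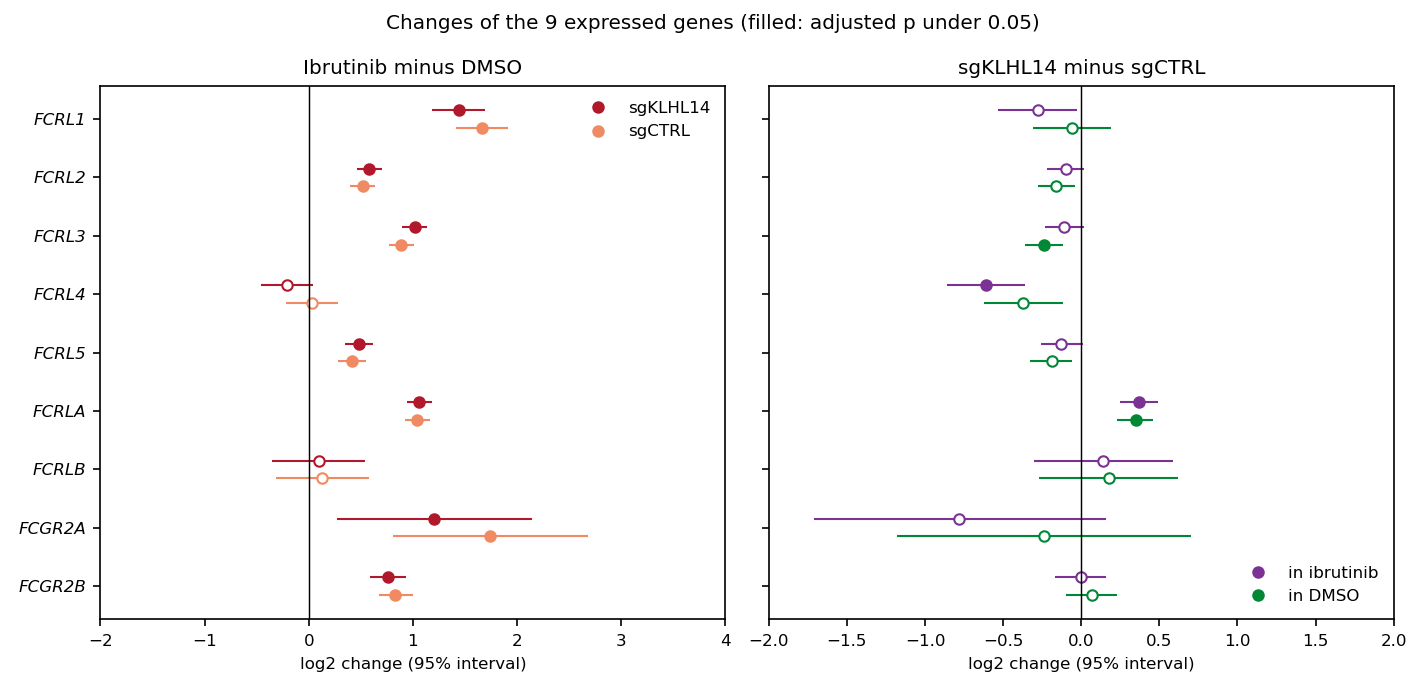
Log2 change with 95% interval of the 9 expressed genes for ibrutinib minus DMSO (left; sgKLHL14 above sgCTRL) and sgKLHL14 minus sgCTRL (right; in ibrutinib above in DMSO); filled points have an adjusted p under 0.05. Filled points on the left are all above 0, from 0.42 for FCRL5 to 1.74 for FCGR2A, and on the right are FCRLA in both treatments, FCRL4 in ibrutinib and FCRL3 in DMSO.

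To show a short word next to the start of 4 of the genes that rose, 100 bases upstream of the start are shown for them and, for comparison, for FCRL3, which rose, and FCRL4, which did not pass. They are RefSeq promoter entries of build GRCh38.p14, 5′ to 3′ along the gene, at chr1:157820121-157820220 (minus strand) for FCRL1, chr1:157777133-157777232 (minus) for FCRL2, chr1:157552516-157552615 (minus) for FCRL5, chr1:161707129-161707228 (plus) for FCRLA, chr1:157700770-157700869 (minus) for FCRL3 and chr1:157598086-157598185 (minus) for FCRL4. Capitals mark ACTTCCT, the reverse complement of AGGAAGT, which holds the GGAA core of ETS-family transcription factors. The core alone, read as TTCC, also occurs unmarked in the FCRL3 and FCRL4 stretches. FCRL4 holds acttccc, which differs from the marked word only in its last base.
FCRL1: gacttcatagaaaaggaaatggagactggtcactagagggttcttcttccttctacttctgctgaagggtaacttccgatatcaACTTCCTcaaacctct
FCRL2: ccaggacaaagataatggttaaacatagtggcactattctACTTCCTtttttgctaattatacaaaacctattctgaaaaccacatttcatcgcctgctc
FCRL5: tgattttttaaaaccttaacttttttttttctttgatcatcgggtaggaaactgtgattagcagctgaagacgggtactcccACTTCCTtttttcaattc
FCRLA: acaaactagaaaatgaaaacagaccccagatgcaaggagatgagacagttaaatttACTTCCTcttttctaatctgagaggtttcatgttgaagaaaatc
FCRL3: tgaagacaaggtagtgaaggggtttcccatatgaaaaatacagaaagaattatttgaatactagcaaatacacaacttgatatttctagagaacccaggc
FCRL4: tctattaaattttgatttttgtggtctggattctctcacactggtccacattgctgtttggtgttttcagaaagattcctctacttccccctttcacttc
The word lay 16 bases before the start of FCRL1, 60 before that of FCRL2, 18 before that of FCRL5 and 44 before that of FCRLA, in the same orientation in each; FCRL1 and FCRL5 held a further copy 217 and 151 bases before the start, outside the stretches shown. In windows of 250 bases upstream, searched on both strands, 4 of the 10 genes and 7.01% of 35116 RefSeq promoters held AGGAAGT. The repeated GAAA core of interferon response elements occurred in as many of the genes, 4 of the 10 (FCRL1, FCRLA, FCGR2B and FCER2, which was not expressed), and in 3.02% of promoters. The composite ETS and interferon regulatory factor element occurred in FCGR2B, where it overlaps that core, and in 2.41% of promoters. GGAAATTCC, a word read by NF-kB factors, occurred in 0 of the 10 genes and in 0.413% of promoters, and the kappa B site of the immunoglobulin kappa enhancer in 0 of the 10 and in 0.179%. The words were chosen after the sequences and the response were known, several genes have more than 1 window, and a match is a description only. FCRL3, FCGR2A and FCGR2B rose without AGGAAGT in these windows, and no binding was measured here. The FCRL3 window precedes a start inside the annotated gene, whose outer end lies at chr1:157700956. The stretch before that outer end was therefore not fully searched for FCRL3.

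The guides made smaller differences. In DMSO, 1 of the 9 expressed genes was higher and 1 lower in the libraries labelled sgKLHL14 than in sgCTRL, where 1.62% of all kept genes were called, 0.773% higher and 0.852% lower. In ibrutinib it was again 1 higher and 1 lower, where 2.35% of all kept genes were called, 1.57% higher and 0.781% lower. FCRLA was the higher one in both treatments, by 0.37 ± 0.056 in ibrutinib (1.29-fold, limma adjusted p = 0.000449) and 0.35 ± 0.056 in DMSO (1.27-fold, limma adjusted p = 0.00166). In the values given above, each FCRLA library labelled sgKLHL14 lay above each sgCTRL library of the same treatment. The FCRLA call was lost without the mean-variance trend (limma adjusted p = 0.0576 in ibrutinib and 0.122 in DMSO).

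FCRL4 was the lower one in ibrutinib. Its reads were 142 and 129 in the sgKLHL14 libraries, against 236 and 195 in sgCTRL, and its log2 level was lower by 0.61 ± 0.12 (0.654-fold, limma adjusted p = 0.00545), given in the fit as -0.61. In DMSO the FCRL4 difference was -0.37 (95% interval -0.62 to -0.12) and did not pass adjustment over all genes (limma adjusted p = 0.146), although the groups did not overlap. Without sgKLHL14 ibrutinib replicate 1 the ibrutinib difference was -0.47 (limma adjusted p = 0.103), and without sgCTRL ibrutinib replicate 2 the adjusted p was 0.0805.

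FCRL3 was the lower one in DMSO, by 0.24 ± 0.059 (given in the fit as -0.24; 0.847-fold, limma adjusted p = 0.0435), close to the threshold. The call for FCRL3 held in 10 of 18 alternative settings, and leaving out sgCTRL DMSO replicate 1 or 2, sgCTRL ibrutinib replicate 1 or 2, or sgKLHL14 DMSO replicate 1 ended it (limma adjusted p = 0.255, 0.116, 0.101, 0.1 and 0.354 in that order). In ibrutinib FCRL3 differed by -0.11 (limma adjusted p = 0.486). FCRL2, FCRL5, FCRL1, FCGR2A, FCGR2B and FCRLB did not pass in either treatment. Their guide differences ran from -0.78 for FCGR2A to 0.14 for FCRLB in ibrutinib and from -0.24 for FCGR2A to 0.18 for FCRLB in DMSO.

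The ibrutinib response of the members was also compared between guides, as the change with sgKLHL14 minus the change with sgCTRL. By limma 0 of the 9 genes passed, with adjusted p from 0.937 to 0.998, 0 had an unadjusted p under 0.05, and 0 passed with limma-voom; over all kept genes 0.0237% were called and 721 had an unadjusted p under 0.05. The difference was 0.02 for FCRLA (95% interval -0.14 to 0.19), 0.13 for FCRL3 (-0.04 to 0.31), -0.22 for FCRL1 (-0.58 to 0.13), -0.24 for FCRL4 (-0.60 to 0.11) and -0.54 for FCGR2A (-1.86 to 0.79). FCRL4 passed for the guide in ibrutinib and not in DMSO, and the test of that difference between treatments is the one given here, which did not pass.

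Genes with the most similar pattern over the 8 libraries were named for each member by the root mean square distance of their centred log2 values, among 5256 genes that varied. MS4A1, the gene of CD20, was among the 2 nearest to FCRL2 (distance 0.0423, after SIPA1 at 0.034). The nearest to FCRL1 was IL3RA (0.107), to FCRL3 METTL7A (0.0534) and TRIM22 (0.0536), to FCRL4 ATXN1 (0.0813), to FCRL5 ACAD10 (0.0104), to FCRLA LAX1 (0.0724), to FCGR2B CYBASC3 (0.0315), to FCRLB KIAA1107 (0.0898) and to FCGR2A LOC643637 (0.338). Within the family FCRL2 and FCRL5 were closest to each other, at 0.0679, with 31 genes nearer to FCRL2 and 36 nearer to FCRL5. These distances describe 8 libraries that share treatment and guide groups.

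Related genes outside the family moved in both directions under ibrutinib. For the list counts in this and the later paragraphs, the shares of all kept genes called were 19.7% higher and 19.3% lower with sgKLHL14. With sgCTRL the shares were 17.9% higher and 16.9% lower. Of 7 expressed genes listed as other Fc receptors and their relatives, 4 rose and 1 fell with either guide. The median log2 change was 0.44 with sgKLHL14 and 0.75 with sgCTRL. The 7 include CD247, a signalling chain and not itself an Fc receptor. The sgCTRL median is the change of CD247, which did not pass with sgCTRL (limma adjusted p = 0.197) or with sgKLHL14 (0.81, limma adjusted p = 0.159). CD247 had 6 to 19 reads a library and passed the level filter only through its ibrutinib libraries, so that median partly reflects the filter. FAIM3, the gene of the IgM Fc receptor, changed by 1.31 ± 0.13 (log2) with sgKLHL14 (limma adjusted p = 1.14e-07) and 1.23 ± 0.13 with sgCTRL (limma adjusted p = 2.49e-07). PIGR, which carries polymeric IgA and IgM across epithelia, fell by 0.85 with sgKLHL14 (limma adjusted p = 2.98e-05) and by 0.67 with sgCTRL (limma adjusted p = 0.000401). TRIM21, an antibody receptor of the cytosol, rose by 0.22 with sgKLHL14 (limma adjusted p = 0.0219) and 0.31 with sgCTRL (limma adjusted p = 0.00246). Of the other members of this list FCGR2C rose with either guide, as given above. FCGRT, the neonatal IgG receptor, passed with sgKLHL14 at 0.44 (limma adjusted p = 0.0139) and not with sgCTRL at 0.23 (limma adjusted p = 0.194). FCGR1A, the high-affinity IgG receptor, passed with sgCTRL at 1.64 (limma adjusted p = 0.00694) and not with sgKLHL14 at 0.00 (limma adjusted p = 0.996), and its difference between guides did not pass (limma adjusted p = 0.845). FCGR1A had 6 to 29 reads a library. Its mean over the 4 DMSO libraries lay below 4.03, so it passed the level filter only through its ibrutinib libraries.

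Of 13 other inhibitory B cell receptors with an ITIM, 6 rose and 3 fell with sgKLHL14, and 7 rose and 4 fell with sgCTRL, at medians of 0.25 and 0.37 for the same guides. CEACAM1 changed most, by 2.22 ± 0.10 with sgKLHL14 (limma adjusted p = 5.9e-12) and 2.02 ± 0.10 with sgCTRL (limma adjusted p = 1.59e-11). CD72, a receptor of semaphorin 4D that damps B cell receptor signals, rose by 0.89 with sgKLHL14 and 0.70 with sgCTRL, and CD22, which binds sialic acid, by 0.25 with sgKLHL14 and 0.37 with sgCTRL. SIGLEC6 fell by 0.32 with sgKLHL14 and by 0.31 with sgCTRL, and PDCD1, the gene of PD-1, fell by 0.86 with sgKLHL14 and by 0.82 with sgCTRL. The remaining lower calls were LILRB4 with sgKLHL14 (-0.18) and LAIR1 (-1.20) and LILRB1 (-0.18) with sgCTRL. Between guides, CD22 was higher by 0.24 (limma adjusted p = 0.0422) and SIGLEC6 lower by 0.26 (-0.26 in the fit, limma adjusted p = 0.0422) in DMSO in the libraries labelled sgKLHL14. In ibrutinib 0 were higher and 3 lower there, SIGLEC6 at -0.27, SIGLEC5 at -0.40 and CD5 at -0.49.

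Of 28 enzymes and adaptors that act below ITIMs and ITAMs, 16 rose and 5 fell with sgKLHL14, and 13 rose and 5 fell with sgCTRL, at medians of 0.22 and 0.15 for the same guides. CD79B, a signalling chain of the B cell receptor, rose by 1.15 with sgKLHL14 and 1.24 with sgCTRL, and CBLB, a ubiquitin ligase that limits receptor signals, by 1.09 with sgKLHL14 and 0.90 with sgCTRL. INPP5D rose by 0.49 with sgKLHL14 and 0.43 with sgCTRL, and SYK by 0.41 with sgKLHL14 and 0.32 with sgCTRL. PTPN6 fell by 0.23 with sgKLHL14 (limma adjusted p = 0.00884), and LYN, the kinase that phosphorylates ITIMs, fell by 0.21 with sgCTRL (limma adjusted p = 0.00621). FYN, a SRC-family kinase, fell by 0.77 with sgKLHL14 and by 0.78 with sgCTRL, and the adaptor GAB2 fell by 0.62 with sgKLHL14 and by 0.57 with sgCTRL. PTPN11, the gene of the phosphatase SHP-2, fell by 0.25 with sgKLHL14 and by 0.30 with sgCTRL, and the adaptor DOK1 fell by 0.50 with sgKLHL14 and by 0.40 with sgCTRL. Between guides, in the libraries labelled sgKLHL14, lower calls were PIK3AP1 at -0.24 in ibrutinib, and PIK3AP1 at -0.23, CBLB at -0.36 and DOK3 at -0.27 in DMSO.

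**Figure D4:**
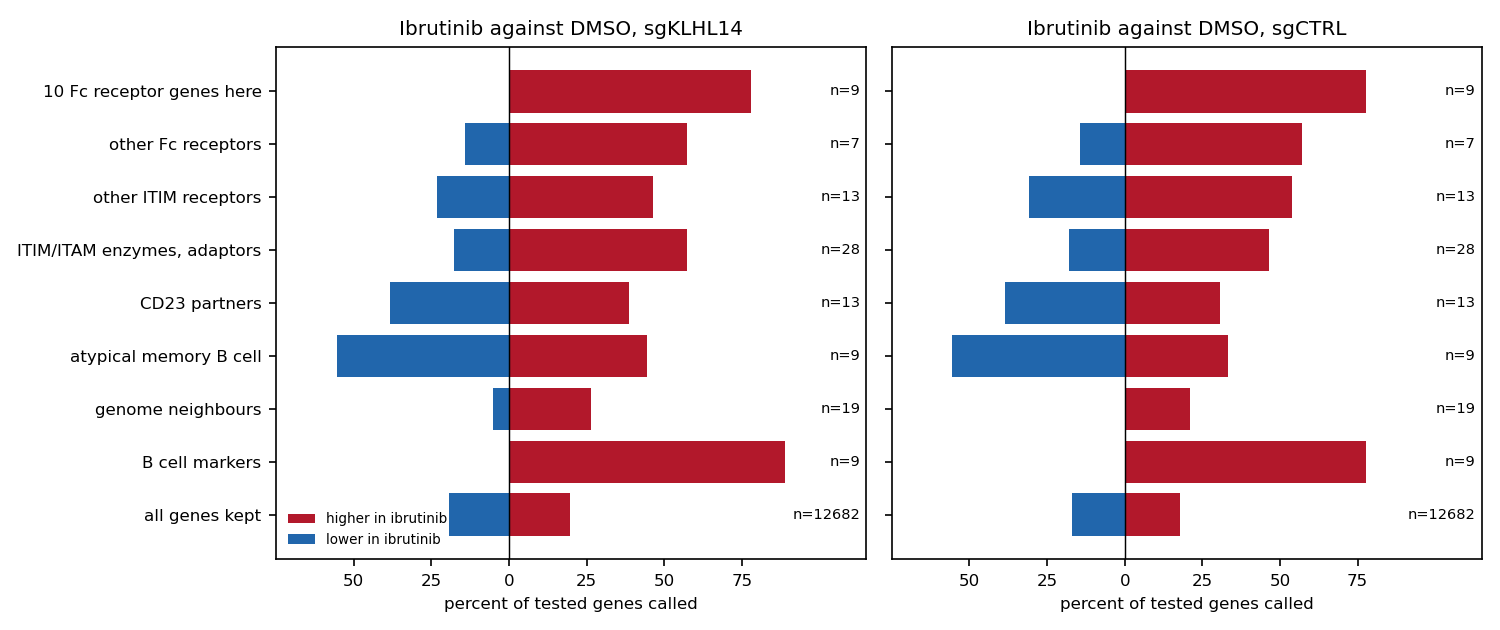
Percent of the expressed genes of each list that were called higher (right, red) or lower (left, blue) in ibrutinib than in DMSO, with sgKLHL14 (left panel) and sgCTRL (right panel); n is the number of genes tested. The Fc receptor genes of this report and the B cell markers have no lower calls with either guide, and all kept genes are called higher in 19.7% with sgKLHL14 and 17.9% with sgCTRL.

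Genes linked to FCER2 were expressed although FCER2 was not. Of 13 such genes tested, 5 rose and 5 fell with sgKLHL14 (median 0.15), and 4 rose and 5 fell with sgCTRL (median -0.15). IL4R, the interleukin-4 receptor, whose signal induces CD23 in B cells, rose by 1.66 ± 0.082 with sgKLHL14 (limma adjusted p = 1.55e-11) and 1.33 ± 0.082 with sgCTRL (limma adjusted p = 3.37e-10). PAX5, STAT6 and ITGB3 rose with either guide, by 0.24 to 0.52 with sgKLHL14 and 0.19 to 0.54 with sgCTRL, and ADAM10, the protease that sheds CD23, rose with sgKLHL14 by 0.27. NOTCH2 fell by 0.78 with sgKLHL14 and by 0.61 with sgCTRL, and ITGB2, IL13RA1 and IL21R fell with either guide. ITGAX (CD11c), a chain of an integrin that binds CD23, fell by 0.89 with sgKLHL14 and by 1.44 with sgCTRL. CR2 (CD21), which also binds CD23, was higher in the libraries labelled sgKLHL14 by 1.14 ± 0.18 in ibrutinib (limma adjusted p = 0.000826) and 0.76 ± 0.18 in DMSO (limma adjusted p = 0.0398). ITGAX was lower there, at -0.41 in ibrutinib and -0.96 in DMSO, and in ibrutinib IL4R was higher by 0.33 and IL21R by 0.25.

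FCRL4 and FCRL5 are known as markers of atypical memory B cells. Of 9 other genes linked to that state or its absence, 4 rose and 5 fell with sgKLHL14 (median -0.48), and 3 rose and 5 fell with sgCTRL (median -0.56). CD27, a memory marker low in that state, rose by 2.00 ± 0.19 with sgKLHL14 (limma adjusted p = 8.18e-08) and 1.48 ± 0.19 with sgCTRL (limma adjusted p = 4.44e-06). The transcription factor SOX5 fell by 0.72 with sgKLHL14 and by 1.08 with sgCTRL. CXCR5, RUNX2 and ITGAX also fell and CCR7 rose with either guide, and ZEB2 rose with sgKLHL14 by 0.34. RUNX2 passed the level filter only through its DMSO libraries. In the libraries labelled sgKLHL14, CD27 was higher by 1.01 and CXCR5 by 0.28 in ibrutinib, and ZEB2 was lower in DMSO, at -0.40. IGJ, the joining chain of IgM and IgA polymers, rose by 2.58 ± 0.11 with sgKLHL14 (limma adjusted p = 5.5e-12) and 2.83 ± 0.11 with sgCTRL (limma adjusted p = 1.16e-12).

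Markers of other cells moved with ibrutinib at low levels. The summed level of 9 T cell markers was 112 to 120 normalized reads in sgKLHL14 ibrutinib, 101 to 111 in sgCTRL ibrutinib, 57.4 to 64.4 in sgKLHL14 DMSO and 48.8 to 58.1 in sgCTRL DMSO, with CD3D, CD3E and CD28 at 0. CD4 rose by 1.32 with sgKLHL14 (limma adjusted p = 0.0222) and 1.74 with sgCTRL (limma adjusted p = 0.00442), and CD8A by 0.74 with sgKLHL14 (limma adjusted p = 0.033). CD4 had 6 to 25 reads a library and passed the level filter only through its ibrutinib libraries. Of 13 myeloid markers 1 was expressed, VCAN, which fell by 2.16 with sgKLHL14 and by 1.53 with sgCTRL, and their sum was 37.2 to 39 in sgKLHL14 ibrutinib, 45.8 to 52.7 in sgCTRL ibrutinib, 59.7 to 68.4 in sgKLHL14 DMSO and 58.1 to 86.1 in sgCTRL DMSO. VCAN had 3 to 35 reads a library and passed the level filter only through its DMSO libraries. NK cell markers summed to 10.5 to 24.4 with KLRD1 and KLRC1 at 0, and 7 of 8 mast cell and basophil markers were at 0. Of the 9 B cell markers 8 rose with sgKLHL14 and 7 with sgCTRL in ibrutinib and 0 fell, beside the rise of the Fc receptor-like genes, and their part in it was not tested.

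The members lie in 2 groups on chromosome 1, with FCER2 on chromosome 19. FCRL5, FCRL4, FCRL3, FCRL2 and FCRL1 follow each other in that order, and FCGR2A, FCGR2B, FCRLA and FCRLB form the other group with FCGR2C and HSPA7 between the first 2. Of 19 expressed genes listed as neighbours, 5 rose and 1 fell with sgKLHL14 (median 0.18), and 4 rose and 0 fell with sgCTRL (median 0.17). Of all kept genes 19.7% were called higher with sgKLHL14 and 17.9% with sgCTRL. The called neighbours were FCGR2C, HSPA7, CD1D and ARHGEF11 with either guide and, with sgKLHL14, also STXBP2 near FCER2, which rose by 0.19, and KIRREL, which fell by 0.55. FCGR2C was also counted above among the other Fc receptor genes. HSPA7, a heat shock pseudogene, rose by 1.43 ± 0.17 with sgKLHL14 (limma adjusted p = 1.56e-06) and 1.5 ± 0.17 with sgCTRL (limma adjusted p = 9.9e-07). CD1D, which presents lipids, rose by 0.71 ± 0.089 with sgKLHL14 (limma adjusted p = 3.59e-06) and 0.75 ± 0.089 with sgCTRL (limma adjusted p = 1.91e-06). FCRL4 and FCRLB, which did not pass, each lie directly beside genes that rose. Beyond FCRLB, DUSP12 changed by -0.21 with sgKLHL14 (limma adjusted p = 0.127) and -0.25 with sgCTRL (limma adjusted p = 0.0741), and ATF6 by 0.05 with sgKLHL14 and -0.01 with sgCTRL.

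**Figure D5:**
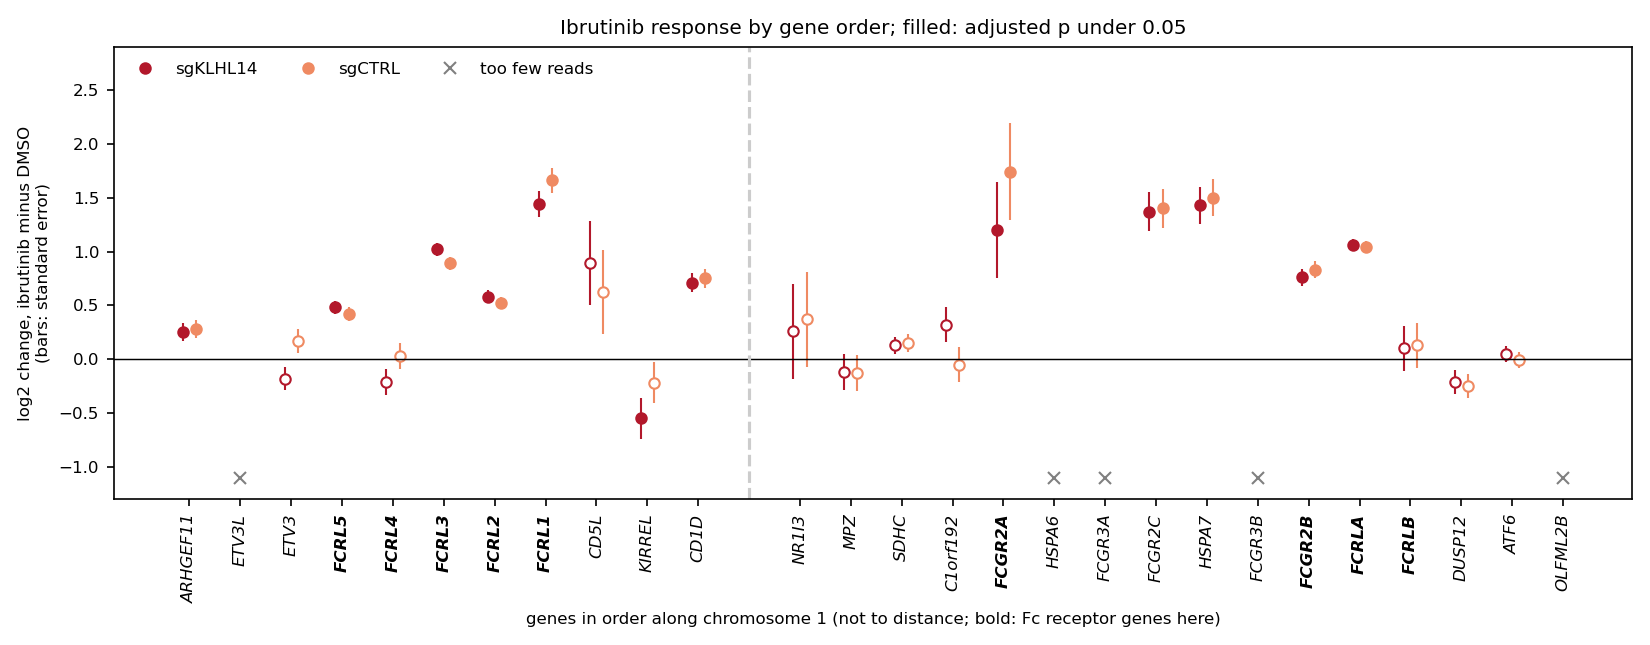
Log2 change of ibrutinib minus DMSO with its standard error for the Fc receptor genes (bold) and listed neighbours in their order on chromosome 1, not to distance, with sgKLHL14 left of sgCTRL; filled points have an adjusted p under 0.05, crosses mark genes with too few reads, and the dashed line parts the 2 gene groups. FCRL4 and FCRLB lie near 0 between or beside genes with filled points above 0.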

How the data were processed

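RNA from 8 libraries (4 groups of 2) was sequenced after poly(A)-selecting stranded library preparation, per the labels' protocols. The submitters' processing notes name bcl2fastq, STAR, HTSeq and the build hg19; their versions and settings, strand included, were not given in the sources used here. The deposited table holds log2 values, each a whole number of reads times a library factor (100% of values within 6e-04), 1 read being worth 1.16 to 2.19, with 0 reads listed as 0; it has 0 columns of other samples. A row of totals was kept out of tests.

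Genes with a mean log2 of at least 4.03 entered a limma-trend model of the 4 groups (limma 3.58.1, R 4.3.3). It had 15 prior and 4 residual degrees of freedom. The model was also run on simulated reads with the same spread setting for every gene. That run does not show how reliable the calls of genes with few reads are. A call means a p under 0.05 after Benjamini-Hochberg adjustment over all kept genes. Per-kb levels used GENCODE 29 transcript lengths. Libraries were not paired by replicate number, since no label names such pairs and deviations of same-numbered libraries correlated at -0.06 to 0.11. Whether same-numbered libraries belong together is not known. A fit with a replicate block called more genes for the guides, as given below. The members and gene lists were chosen with earlier results of these data known. Named genes are all members, KLHL14, up to 4 genes per list with the smallest p and all of 5 or fewer that moved one way, and the 2 genes nearest to each member; some list genes are counted but not reported here by name. Depth sets the precision of the low genes FCGR2A, FCRLB and FCER2, and zero-count limits cover counting error only. Immunoglobulin genes other than IGJ were not analysed here.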

Additional observations from a re-analysis of the deposited data

How the results depend on the processing

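Under 18 alternatives (17 where 1 could not be fitted), among them other filters, scalings, priors, limma-voom, a pseudocount of 16 and leaving out each library, FCRL1, FCRL2, FCRL3, FCRL5, FCRLA and FCGR2B kept their ibrutinib calls with both guides. FCGR2A, which falls under the stricter filter, was called in 11 of 17 with sgKLHL14 (log2 change 0.55 to 1.86) and 14 of 17 with sgCTRL (1.12 to 2.32); besides the settings in the report, it was lost without the trend (limma adjusted p = 0.13 with sgKLHL14 and 0.0535 with sgCTRL), under quantile scaling with sgKLHL14 (0.0553) and without sgKLHL14 ibrutinib replicate 1 (0.0574) or 2 (0.208). FCRL4 with the guide in ibrutinib was called in 14 of 18 (lost at 0.0563 without filter and 0.0681 without trend), and FCRL3 in DMSO was lost at 0.185 without filter, 0.296 without trend and 0.0821 with only its 2 groups. Genes called numbered 206 for the guides in DMSO (47 without filter, 25 without trend, 369 with the replicate block, 63 to 534 leaving out a library), 298 for the guides in ibrutinib (155, 96, 432, and 123 to 364) and 3 for the difference in response (0, 0, 5, and 2 to 4). For ibrutinib, leaving out a library gave 3566 to 4955 with sgKLHL14 and 2907 to 4638 with sgCTRL. The replicate block changed no member's call. Signs turned only for members without a call: FCRL4 under ibrutinib with sgCTRL was -0.0231 under quantile scaling, and in the difference in response FCRLA was -0.00156 under quantile scaling and FCRLB 0.00281 with limma-voom. Leaving out libraries gave ranges across 0 for FCRLB under ibrutinib with sgCTRL (-0.157 to 0.419), for the guides in ibrutinib for FCGR2B (-0.02 to 0.013) and FCRLB (-0.143 to 0.433), for the guides in DMSO for FCRL1 (-0.206 to 0.0915) and FCGR2A (-0.892 to 0.416), and in the difference in response for FCRL5 (-0.01 to 0.145), FCRLA (-0.0055 to 0.0475), FCRLB (-0.321 to 0.255) and FCGR2A (-1.19 to 0.114). The causes were not tested, apart from fewer reads or libraries where these were left out.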
